A study of Mus musculus with 9 samples.

Results

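Gene expression in a BCR/ABLp185+ line without Stat5b was compared directly with that in a line without Stat5a, to describe what differs between loss of one and loss of the other paralog. Both lines are mouse bone marrow cells of the C57BL/6N strain that were transformed by the BCR/ABLp185 oncogene and then grown in the same medium with serum, with no drug or cytokine named in the labels. The Stat5b-/- line and the Stat5a-/- line each gave 3 libraries, so the comparison rests on 6 libraries, and 3 libraries of a wt line were kept in the fit for the estimate of the spread. There was 1 line of each genotype and its libraries are technical replicates, so a p-value here measures the spread between libraries of a line. A difference between the genotypes and any other difference between these lines cannot be told apart. Counts were given for 50686 genes in each library, and 13852 genes with enough reads entered the test.

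STAT5A and STAT5B are closely related transcription factors encoded next to each other, by Stat5b at chr11:100780731-100850724 and Stat5a at chr11:100859351-100885169 of GRCm38. Cytokine receptors with their JAK kinases, and the BCR/ABL kinase in leukemic cells, phosphorylate them, after which they form dimers, enter the nucleus and bind a short palindrome known as the GAS motif. Their known target genes include feedback inhibitors of cytokine signaling (Cish and the Socs genes), survival kinases (Pim1) and cyclins. The response to type I interferons is carried by a complex with STAT2 and IRF9, which acts on a different element, the ISRE, in antiviral genes.

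Each targeted gene was lower in the line labelled as lacking it than in the other line and in wt. Stat5a had 11.8, 11.9 and 13.6 normalized CPM in the Stat5a-/- libraries and 87.1, 91.7 and 72.2 in the Stat5b-/- libraries, with a mean of 43.2 in wt. Normalized CPM are a library's counts after scaling to a common total, and the groups lay far apart. The log2 fold change of Stat5b-/- over Stat5a-/-, which is positive where a gene was higher in the Stat5b-/- line, was 2.75 (SE 0.15, adjusted p = 1.32e-08, edgeR's quasi-likelihood test throughout). Stat5b had 145, 124 and 156 normalized CPM in the Stat5a-/- libraries and 72.3, 58.5 and 59.5 in the Stat5b-/- libraries (log2 fold change -1.16, SE 0.11), with a mean of 106 in wt. For both genes wt lay between the lines, so each difference holds a lower level in the line that lacks the gene and a higher level than wt in the other. Every Stat5a-/- library lay above every Stat5b-/- library for Stat5b, but reads on Stat5b remained in the line that lacks it. The counts cover whole genes and do not show which exons the reads came from, and reads that fit both paralogs equally were not counted. In normalized CPM per kilobase of gene model, Stat5a stood at 1.74 ± 0.14 (SD, n = 3) in Stat5a-/- and 11.7 ± 1.43 in Stat5b-/- libraries, and Stat5b at 25.6 ± 2.87 and 11.5 ± 1.39. On this length-adjusted scale the remaining paralog was therefore present at 25.6 in the Stat5a-/- line and at 11.7 in the Stat5b-/- line.

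The 6 libraries held between 11948136 and 14905175 counted reads. Pairs of libraries from the same line differed beyond counting error (chi-square per degree of freedom 4.63 to 28.0 over all 3 lines), and each entered as its own replicate. The summed level of 10 B-lineage markers was 6847 ± 405 normalized CPM in Stat5a-/- and 6415 ± 472 in Stat5b-/- libraries, with overlapping ranges, and none of these markers was at 0. The labels name no cell type beyond transformed bone marrow, and all libraries also held T-cell transcripts. The sum of 22 T-cell markers was 2170, 2288 and 1972 normalized CPM in the Stat5a-/- libraries and 3636, 2577 and 3433 in the Stat5b-/- libraries, with all 22 detected and no overlap between the lines. The sum of 4 Y-linked genes was 22.7 to 32.1 in Stat5a-/- and 33.4 to 59.9 in Stat5b-/- libraries, while Xist, the RNA of the inactive X chromosome, was 1819 to 2134 and 1968 to 2827. In the wt libraries the mean Y-linked sum was 117 and Xist lay at 9.45 to 12.3. Replicate 2 of Stat5b-/- had the lowest T-cell, Y-linked and antiviral sums of its line. The part of these transcripts in the results that follow was not tested beyond the values given beside them, and in bulk RNA fewer cells of a type and less RNA per cell cannot be told apart.

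Between the lines, 666 genes were higher in Stat5b-/- (4.81% of those tested) and 914 were lower (6.6%) at an adjusted p under 0.05 and an absolute log2 fold change over 1. Of these, 650 higher and 904 lower genes had no overlap between the 3 libraries of each line. By adjusted p alone, 2269 genes were higher (16.4%) and 2429 lower (17.5%). Unless the adjusted p alone is named, a gene is called higher or lower below only where it passed both limits. Counts of list members below are to be read against these shares, and in a small list 1 member alone can exceed them. With the T-cell marker sum as a covariate, 439 genes were higher and 715 lower, and testing directly for a log2 fold change beyond 1 left 261 and 502. The T-cell sum did not overlap between the lines, so this covariate is partly confounded with the contrast. Its slope rests on differences between libraries of the same line. A call lost or kept with it, here and below, therefore does not show the part of T-cell transcripts.

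**Figure D1:**
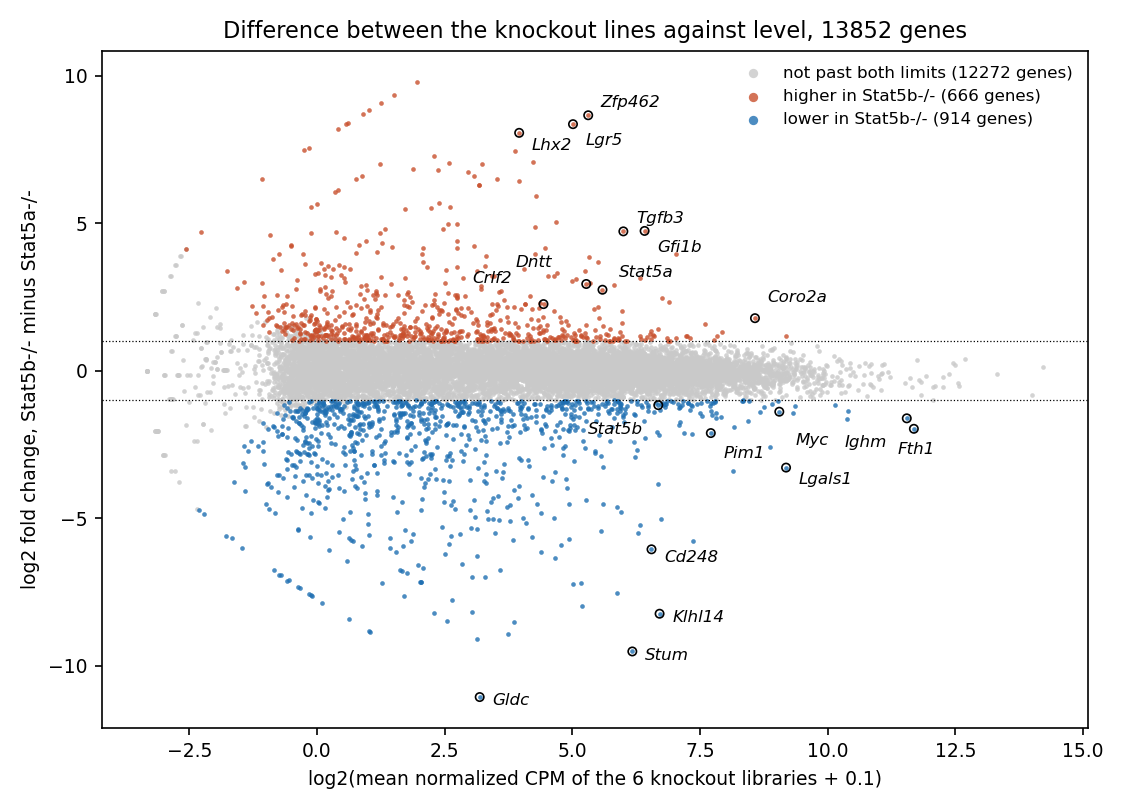
Each point is 1 of 13852 genes, with its mean level over the 6 knockout libraries on the horizontal axis (log2 of normalized CPM plus 0.1) and the log2 fold change of Stat5b-/- over Stat5a-/- on the vertical axis. The 666 higher genes are red and the 914 lower genes blue, dotted lines mark the fold limit, and circled genes are named in the text, such as Stum at -9.51 and Zfp462 at 8.67.

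Of the other STAT genes described here, none passed both limits. Stat2, which acts in the type I interferon response, passed the p limit at 0.54 (SE 0.12, adjusted p = 0.0047), from 32.6, 29.6 and 35.0 to 51.6, 46.7 and 42.7 normalized CPM, but did not pass with the T-cell covariate, at 0.39 (adjusted p = 0.229). Stat4, Stat3 and Stat6 had log2 fold changes of 0.41, 0.15 and 0.10 that did not pass, and their libraries overlapped.

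Of 17 known cytokine feedback and STAT5 target genes, 6 were lower and 1 was higher in Stat5b-/-, and by adjusted p alone 11 were lower and 3 higher. Their median log2 fold change was -0.76, against 0.02 over all genes tested. With the T-cell marker sum as a covariate 5 were lower and 1 was higher past both limits (Cish, Pim1, Il2ra, Myc and Socs3, and Bcl6), by adjusted p alone 7 and 1, and the median was -0.62. Cish, a feedback inhibitor that binds cytokine receptors, had 94.0, 85.4 and 119 normalized CPM in Stat5a-/- and 38.9, 31.3 and 18.4 in Stat5b-/- libraries (log2 fold change -1.75, SE 0.22, adjusted p = 4.57e-05). All 3 Stat5a-/- libraries lay above all Stat5b-/- libraries, and the wt libraries, at 13.4 to 16.9, lay below both lines. Pim1, a serine/threonine kinase that promotes survival, had 293, 334 and 392 in Stat5a-/- and 87.6, 84.1 and 64.8 in Stat5b-/- libraries (log2 fold change -2.11, SE 0.15). Il2ra, the alpha chain of the interleukin-2 receptor, had 50.7, 45.2 and 50.7 against 12.8, 11.3 and 14.3 normalized CPM (log2 fold change -1.93, SE 0.13). For both genes the lines stood well apart, and for Il2ra the Stat5b-/- libraries overlapped those of wt, at 12.8 to 15.4.

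Myc was the most abundant gene that was lower among these targets. It had 720, 723 and 857 normalized CPM in Stat5a-/- and 330, 305 and 247 in Stat5b-/- libraries (log2 fold change -1.38, SE 0.12, adjusted p = 2.26e-06), and its wt libraries were highest of all at 1059 to 1165. The feedback inhibitors Socs3 and Socs1 were lower at -1.10 and -1.07. Socs3 dropped to -0.92 without replicate 2 of Stat5b-/-. Socs2, from the same family, passed the p limit only at -0.76, as did the cyclin genes Ccnd1 at -0.87 and Ccnd2 at -0.56 and the kinase gene Pim3 at -0.73. Ccnd3 and Pim2 did not pass at -0.25 and 0.18. The survival genes Mcl1 and Bcl2l1 went the other way and passed the p limit only, at 0.37 and 0.39. Bcl6, a repressor that STAT5 is known to keep low, was the 1 higher gene, with 5.31, 6.83 and 5.23 normalized CPM in Stat5a-/- and 12.8, 12.6 and 9.67 in Stat5b-/- libraries. The change of 1.01 on the log2 scale (SE 0.17) dropped to 0.94 to 0.96 in 4 of the 6 fits that left out a library, namely replicates 1 and 3 of Stat5a-/- and 1 and 2 of Stat5b-/-.

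**Figure D2:**
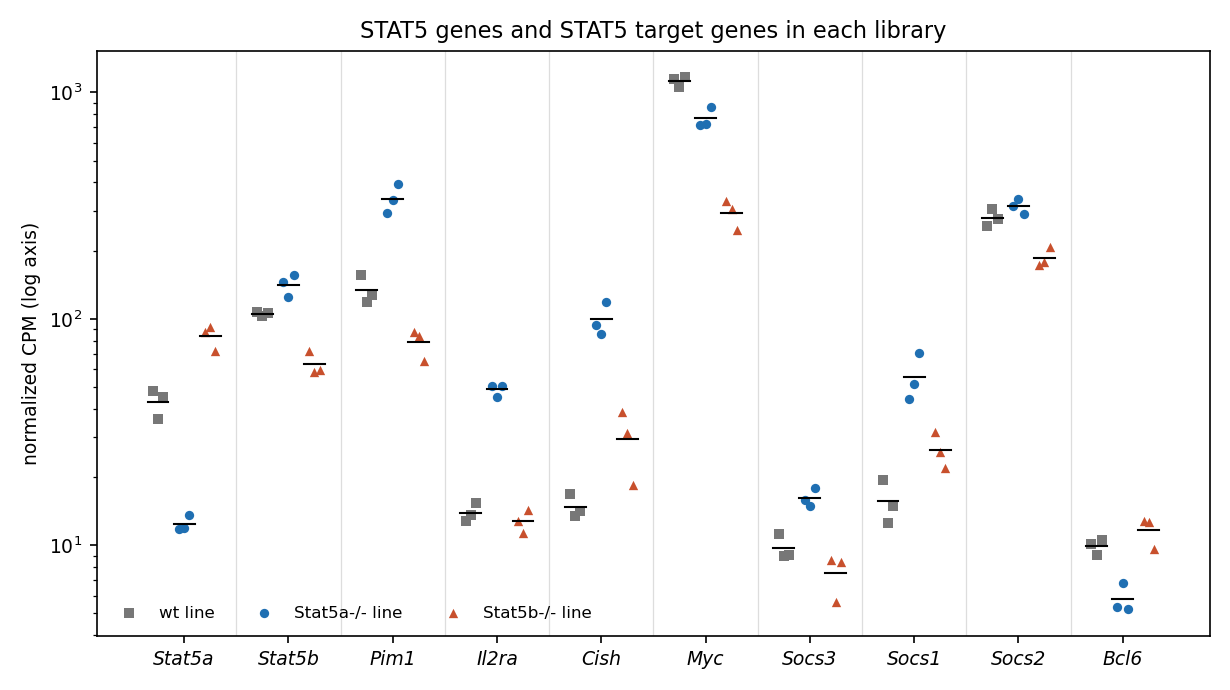
Normalized CPM (log axis) of the STAT5 genes and of 8 target genes in each of the 9 libraries, with squares for wt, circles for Stat5a-/- and triangles for Stat5b-/-, and a bar at each mean. For Pim1, Il2ra, Cish, Myc, Socs3, Socs1 and Socs2 every Stat5a-/- library lies above every Stat5b-/- library, and for Bcl6 the order is the opposite.

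The promoters of this group were searched for the GAS letters TTCNNNGAA, which read the same on both strands. The RefSeq table (GRCm38.p6) gives 250 bases before and 50 after a gene's start, and 8.3% of its 32851 windows held the letters. Promoters were found for 9444 of the symbols tested, and the letters were present for 8.33% of the higher and 9.93% of the lower genes, against 8.3% of all tested genes with a promoter. Of the 6 lower target genes, 5 had a window and 2 of these held the letters, as did the window of Bcl6. The 250 bases before the start are shown 5′ to 3′ for the lower gene Socs3 (chr11:117969367-117969616, minus strand) and for 1 of the starts of the higher gene Bcl6 (chr16:23988853-23989102, minus strand), since these genes differed in opposite directions, with each match in capitals. The matches begin 154 and 118 bases before the starts, and a match is a description of the letters only.
Socs3: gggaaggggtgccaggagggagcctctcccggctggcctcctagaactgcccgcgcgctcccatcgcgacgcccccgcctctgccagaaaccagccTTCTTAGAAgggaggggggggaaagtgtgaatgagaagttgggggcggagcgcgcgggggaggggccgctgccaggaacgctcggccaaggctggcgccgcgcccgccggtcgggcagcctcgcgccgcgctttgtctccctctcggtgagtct
Bcl6: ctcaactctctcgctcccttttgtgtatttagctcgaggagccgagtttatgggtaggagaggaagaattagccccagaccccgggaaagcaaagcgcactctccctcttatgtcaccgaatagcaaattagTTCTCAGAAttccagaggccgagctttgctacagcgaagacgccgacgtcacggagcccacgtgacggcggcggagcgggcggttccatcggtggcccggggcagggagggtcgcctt

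Of 31 cytokine and growth factor receptor genes, 25 were tested, 4 were lower and 1 was higher. The higher count was 3 without replicate 2 and 2 without replicate 3 of Stat5b-/-, 2 by DESeq2 and 3 with no filter on low counts. The lower genes were Il2ra and 3 genes on chromosome 15. Lifr, the receptor for leukemia inhibitory factor, had 12.1, 12.6 and 10.8 normalized CPM in Stat5a-/- and 0.48, 0.14 and 1.07 in Stat5b-/- libraries (log2 fold change -4.42, SE 0.32). The interleukin-3 receptor beta chain genes Csf2rb2 and Csf2rb, the latter shared with the interleukin-5 and GM-CSF receptors, were lower at -2.63 and -1.33. Csf2rb2 had 56.4, 62.1 and 76.5 against 11.7, 9.77 and 9.98 normalized CPM. These neighbouring genes are near-identical copies, so the split of reads between them is uncertain. Crlf2, which binds thymic stromal lymphopoietin together with the interleukin-7 receptor, was higher, with 7.83, 5.53 and 8.93 against 41.8, 39.4 and 25.7 normalized CPM (log2 fold change 2.27, SE 0.24). No library of a line overlapped the other line for any of these genes. By adjusted p alone, 11 receptor genes were higher, among them Il7r at 0.67, Il6st at 0.79, Il2rb at 0.65 and the interferon receptor gene Ifnar1 at 0.36. The T-cell covariate left 3 receptor genes higher by adjusted p alone. The other interferon receptor genes, Ifnar2, Ifngr1 and Ifngr2, did not pass, at 0.18 to 0.20.

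Of 29 genes for JAK kinases and for kinases and adaptors around BCR/ABL, 2 were higher and 1 was lower. These counts are near the shares over all genes tested, 4.81% higher and 6.6% lower. By adjusted p alone 9 were higher and 3 lower, against 5 and 2 with the T-cell covariate. The Src-family kinase gene Fyn had 90.3, 99.2 and 88.2 normalized CPM in Stat5a-/- and 206, 205 and 221 in Stat5b-/- libraries (log2 fold change 1.19, SE 0.09). Blk, a Src-family kinase of B cells, was higher from a low level, 0.58 ± 0.08 to 3.68 ± 0.76 (log2 fold change 2.64). The kinase genes Abl1 and Jak1 and the BCR/ABL partner Bcr passed the p limit only, at 0.94, 0.78 and 0.73. Reads on Abl1 and Bcr can include the BCR/ABL transcript, which the gene models do not separate.

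Of 19 tested genes that report or restrain ERK signaling, 3 were lower and 1 was higher. Dusp4, a phosphatase that inactivates ERK, had 26.4, 21.8 and 31.5 normalized CPM in Stat5a-/- and 0.75, 0.75 and 0.84 in Stat5b-/- libraries (log2 fold change -5.07, SE 0.22). Dusp5, another ERK phosphatase, was lower at -1.49, from 312 ± 14.4 to 111 ± 12.6, and the AP-1 gene Fos at -2.31. The immediate early gene Egr1 was higher at 1.26, with 46.2, 57.5 and 59.2 against 145, 138 and 106 normalized CPM. Dusp6 and Phlda1 passed the p limit only, at 0.85 and 0.86. Genes of this list therefore differed in both directions, and its median log2 fold change was 0.21. The T-cell covariate gave 3 higher and 3 lower genes and a median of 0.06.

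Of 50 tested antiviral genes, 15 were higher and 2 lower, and by adjusted p alone 33 were higher and 3 lower. The median log2 fold change of the list was 0.82. Usp18, a protease that removes ISG15 and dampens interferon receptor signaling, had 4.96, 4.07 and 3.97 normalized CPM in Stat5a-/- and 16.6, 14.6 and 18 in Stat5b-/- libraries (log2 fold change 1.91, SE 0.16, adjusted p = 1.11e-06). Oasl1, of the oligoadenylate synthetase family, had 2.24, 1.46 and 2.34 against 6.99, 7.93 and 6.86 (log2 fold change 1.84, SE 0.25). Neither gene overlapped between the lines. Other higher genes were Ifi44 at 2.70, the antiviral GTPase gene Mx1 at 1.48, Parp12 at 1.44, the ubiquitin-like Isg15 at 1.41, Rsad2 (viperin) at 1.38, and the RNA sensor genes Ifih1 and Dhx58 at 1.35 each. These were low in level, with a mean of 3.70 to 15.1 normalized CPM in Stat5b-/- libraries. Rnf213, a large ubiquitin ligase, stood at a higher level, with 62.8, 58.4 and 54.3 against 150, 106 and 148 normalized CPM (log2 fold change 1.20).

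The exceptions in this list were large. Ifitm1, a membrane protein that blocks virus entry, had 121, 148 and 127 normalized CPM in Stat5a-/- and 18.6, 16.5 and 16.9 in Stat5b-/- libraries (log2 fold change -2.93, SE 0.13, adjusted p = 2.74e-09), and 2.12 to 3.11 in wt. Bst2 (tetherin), which holds budding virus at the cell surface, was lower at -1.31, and Ifitm2 passed the p limit only at -0.56. The neighbouring Ifitm3 was higher at 1.09. Pml, Xaf1, Eif2ak2, Ifit2 and Samhd1 had values between -0.05 and 0.07 with overlapping libraries.

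Of the 9 interferon regulatory factors, Irf7 and Irf9 were higher and none was lower. Irf7, which drives type I interferon production, had 13.6, 11.8 and 11.5 normalized CPM in Stat5a-/- and 34.2, 29.5 and 28.3 in Stat5b-/- libraries (log2 fold change 1.32, SE 0.14). Irf9, the DNA-binding partner of STAT2, had 24.3, 21.6 and 22.8 against 54.1, 48.7 and 48.3 (log2 fold change 1.14, SE 0.11). For both, the lowest Stat5b-/- library was above the highest Stat5a-/- library. Irf1, Irf8, Irf3 and Irf4 passed the p limit only, at 0.63, 0.51, 0.42 and 0.41.

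Guanylate-binding proteins and immunity-related GTPases attack intracellular pathogens. Of 15 tested, 3 were higher (Iigp1 at 1.66, Gbp8 and Gbp9 at 1.19 each) and Gbp3 was lower at -1.41. The gene models of Gbp8 and Gbp9 overlap on the same strand, so the split of reads between them is uncertain. Gbp3 had 103, 96.6 and 84.8 normalized CPM in Stat5a-/- and 30.6, 37.7 and 38.8 in Stat5b-/- libraries. Its neighbours on chromosome 3, Gbp7 and Gbp2, passed the p limit only at -0.80 and -0.57, while Gbp4 on chromosome 5 did so at 0.74. Gbp8 was at 0.98 without replicate 3 of Stat5b-/-, and 2 genes of the list were lower without replicate 1 of Stat5a-/- or any 1 library of Stat5b-/-. None of the 3 higher genes passed with the T-cell marker sum as a covariate. Iigp1 then had an adjusted p of 0.141, Gbp9 was at 0.46 and Gbp8 at -0.06, and 0 genes of the list were higher by adjusted p alone, against 9 without the covariate. In MHC class I presentation, 1 of 14 genes was higher, Nlrc5, the transactivator of the class I genes, with 65.9, 66.6 and 84.9 against 171, 166 and 134 normalized CPM (log2 fold change 1.12, SE 0.12). The class I chains H2-K1 and H2-D1 had 0.20 and -0.07 and did not pass. In MHC class II presentation, the peptide-loading genes H2-DMb1 and H2-DMb2 were lower at -2.85 and -1.04, the latter at -0.86 without replicate 2 of Stat5b-/-, and H2-Aa and H2-Ab1 passed the p limit only at 0.65 and 0.41. By adjusted p alone 3 class II genes were higher, and 0 with the T-cell covariate.

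The T-cell transcripts moved with the antiviral genes. The sum of the antiviral list was 1885, 1899 and 1832 normalized CPM in Stat5a-/- and 2539, 2152 and 2434 in Stat5b-/- libraries, without overlap. Of the 22 T-cell markers, 4 were higher and Cd2 was lower, and by adjusted p alone 20 were higher, with a median log2 fold change of 0.77. The kinase gene Zap70 stood at 2.02, the transcription factor gene Gata3 at 1.41, and the T-cell receptor signaling genes Lck and Lat at 1.17 and 1.14. The T-cell receptor complex genes Cd3e, Trac and Trbc2 passed the p limit only at 0.63, 0.70 and 0.72. Cd2 had 276 ± 16.8 normalized CPM in Stat5a-/- and 96.3 ± 6.98 in Stat5b-/- libraries. With the T-cell sum as a covariate, 8 antiviral genes were higher and 1 was lower, and their median log2 fold change was 0.37. In that fit Usp18 and Irf7 passed both limits at 1.63 and 1.05, Irf9 passed the p limit only at 0.99, Mx1 did not pass at 0.42, and the median of the guanylate-binding list was -0.04. Leaving out replicate 2 of Stat5b-/-, the library with the lowest T-cell sum of its line, gave 17 higher antiviral genes and 8 higher T-cell markers, and over all 6 fits without a library the antiviral count was 14 to 17. The part of T-cell transcripts in the antiviral result was not tested beyond these values.

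**Figure D3:**
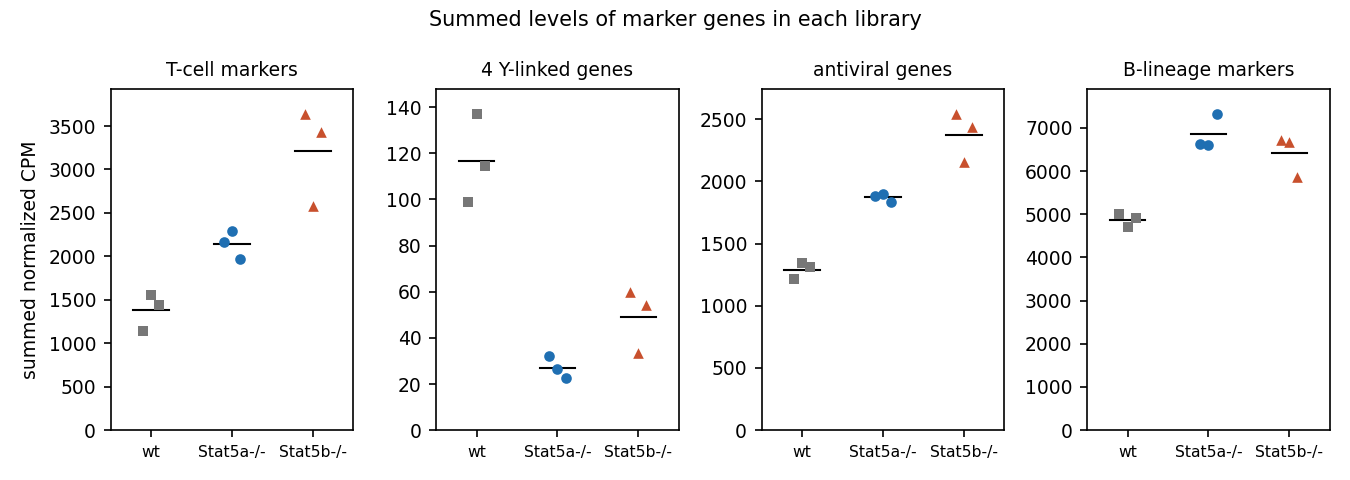
Summed normalized CPM of T-cell markers, Y-linked genes, antiviral genes and B-lineage markers in each of the 9 libraries, with squares for wt, circles for Stat5a-/-, triangles for Stat5b-/- and a bar at each mean. The first 3 sums are higher in every Stat5b-/- than in every Stat5a-/- library, with replicate 2 of Stat5b-/- the lowest of its line, while the B-lineage sums overlap.

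The ISRE core, searched on both strands as GAAA, any 2 bases and GAAA again, was in 3.44% of the 32851 RefSeq windows. It was found for 5.7% of the higher and 2.96% of the lower genes with a promoter, against 3.86% of all tested genes with one. In the antiviral list it was held by 17 of the 38 genes with a window (44.7%), by 5 of the 10 higher genes and by 1 of the 2 lower genes. The bases before the start are shown for Isg15 (chr4:156200819-156201068, minus strand) and Rsad2 (chr12:26456453-26456702, minus strand), which were higher, and for Bst2 (chr8:71537473-71537722, minus strand), which was lower although it holds the same core, with matches in capitals.
Isg15: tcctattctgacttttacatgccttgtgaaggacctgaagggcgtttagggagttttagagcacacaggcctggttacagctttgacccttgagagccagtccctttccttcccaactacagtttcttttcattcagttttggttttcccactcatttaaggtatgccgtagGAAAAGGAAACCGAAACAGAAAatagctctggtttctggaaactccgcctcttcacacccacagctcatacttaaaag
Rsad2: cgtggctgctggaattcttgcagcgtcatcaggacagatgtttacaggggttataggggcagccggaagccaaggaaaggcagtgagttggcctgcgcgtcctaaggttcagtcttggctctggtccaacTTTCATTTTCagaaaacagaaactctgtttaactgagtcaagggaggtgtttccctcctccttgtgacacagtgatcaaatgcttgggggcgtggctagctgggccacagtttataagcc
Bst2: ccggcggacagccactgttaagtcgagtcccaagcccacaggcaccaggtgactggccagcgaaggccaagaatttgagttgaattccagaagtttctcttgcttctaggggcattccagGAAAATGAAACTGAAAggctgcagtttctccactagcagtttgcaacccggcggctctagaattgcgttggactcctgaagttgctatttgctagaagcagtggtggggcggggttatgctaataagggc

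Of 32 ribosome biogenesis genes, 16 were lower by adjusted p alone and none was higher, and the median log2 fold change was -0.37. With the T-cell marker sum as a covariate, 3 were lower by adjusted p alone and the median was -0.24. Nolc1, a nucleolar phosphoprotein, was the 1 gene past both limits, with 684, 777 and 638 normalized CPM in Stat5a-/- and 280, 384 and 359 in Stat5b-/- libraries. The log2 fold change of -1.04 (SE 0.12) was -0.96 without replicate 2 of Stat5a-/- and -0.92 without replicate 1 of Stat5b-/-. The list had 3 lower genes without replicate 1 of Stat5a-/- or replicate 2 of Stat5b-/-, and 2 without replicate 2 of Stat5a-/-. Srm, a polyamine synthesis gene, and Nle1 were just short of the fold limit at -0.99 and -0.94. Of the 12 genes of the MYC network, Myc and its antagonist Mxi1 were lower at -1.38 and -1.08, while the antagonists Mxd3, Mxd4 and Mxd1 passed the p limit only at 0.97, 0.97 and 0.80, and 2 genes of the network were higher without replicate 3 of either line. Of 83 tested cytoplasmic ribosomal protein genes, 28 were lower and 1 higher by adjusted p alone, against 7 and 2 with the T-cell covariate. Both limits were passed by Rps2 at -1.11 and Rpl23a at -1.07. Rpl23a was at -0.99 without replicate 2 of Stat5b-/- and also missed the fold limit without replicate 2 of Stat5a-/-. Many of these have processed pseudogenes that take up shared reads, so their levels are uncertain.

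Glycolysis stood lowest among the metabolic lists. Of its 22 tested genes, 13 were lower and none higher by adjusted p alone, and the median log2 fold change was -0.54. Eno1 (enolase) had 284, 283 and 314 normalized CPM in Stat5a-/- and 142, 146 and 129 in Stat5b-/- libraries (log2 fold change -1.08, SE 0.10). The lactate exporter gene Slc16a3 and the aldolase gene Aldoc were lower at -1.55 and -1.43, both from under 5 normalized CPM. Among the abundant enzymes, Aldoa, Pkm and Ldha passed the p limit only at -0.81, -0.75 and -0.56. With the T-cell covariate, the median was -0.25, 1 gene was lower by adjusted p alone and no gene of this list passed both limits. Of 78 tested subunits of oxidative phosphorylation, 21 were lower and 2 higher by adjusted p alone, with a median of -0.20, and with the T-cell covariate 6 were lower, 1 was higher and the median was -0.07. The subunit gene Ndufs8 was lower at -1.03, Ndufb10 was lower at the limit itself, and Cox6a2 was higher at 1.27. Ndufs8 and Ndufb10 were at -0.69 and -0.73 with the T-cell covariate. Ndufb10 had 344, 472 and 483 against 224, 233 and 192 normalized CPM. Both fell short of the fold limit in 3 of the 6 fits without a library. For Ndufs8 they were -0.98 without replicate 3 of Stat5a-/- and -0.97 and -0.997 without replicates 1 and 3 of Stat5b-/-. For Ndufb10 they were -0.94 and -0.90 without replicates 2 and 3 of Stat5a-/- and -0.92 without replicate 3 of Stat5b-/-. They lie on chromosomes 19 and 17.

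Of 26 cholesterol biosynthesis genes, 11 were lower by adjusted p alone and none was higher, with a median log2 fold change of -0.30. The T-cell covariate left 1 gene of the list lower by adjusted p alone and a median of -0.22. Of 23 tested serine, glycine and ATF4 stress genes, 3 were lower. Gldc, the glycine decarboxylase, had 18.1, 17.3 and 18.6 normalized CPM in Stat5a-/- libraries, from 678 reads, and 0 reads in the Stat5b-/- and wt libraries. Against a floor of 3 reads over the Stat5b-/- libraries it was at least 254-fold lower. The stress genes Nupr1 and Ppp1r15a were lower at -1.84 and -1.04, the latter at -0.91 without replicate 3 of Stat5a-/- and -0.98 without replicate 3 of Stat5b-/-. The median of the list was -0.28. With the T-cell covariate it was -0.07, and 4 genes were lower by adjusted p alone.

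**Figure D4:**
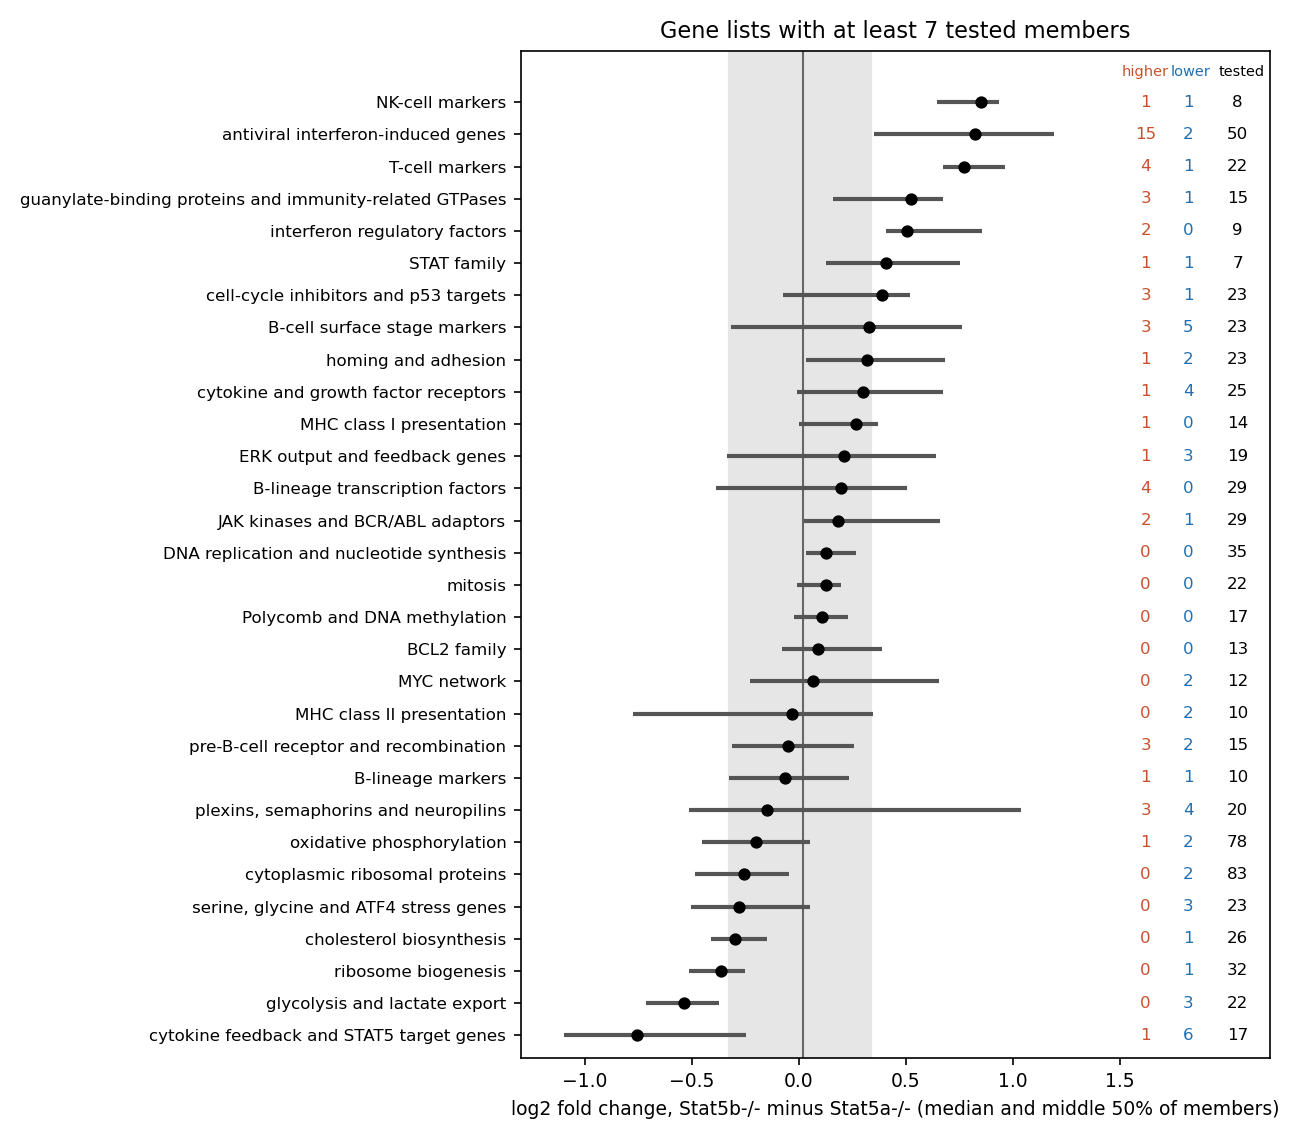
Median (points) and middle 50% (bars) of the log2 fold change of Stat5b-/- over Stat5a-/- for the lists with at least 7 tested members, with the number of members higher, lower and tested at the right. The grey band is the middle 50% of all genes tested and the vertical line their median. Antiviral genes and T-cell and NK-cell markers stand highest, and STAT5 target genes and glycolysis lowest.

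Proliferation genes differed little. None of 35 DNA replication genes and none of 22 mitosis genes passed both limits, with medians of 0.13 in each. By the p limit alone, 6 replication genes were higher and 1 lower, and 2 mitosis genes were higher and 2 lower, the latter counts being 1 and 0 with the T-cell covariate. Of 23 tested cell-cycle inhibitors and p53 targets, 3 were higher and 1 was lower, and by adjusted p alone 10 were higher and 2 lower. With the T-cell covariate, Cdkn2c alone passed, at 1.29, and Fas, Trp53inp1 and Cdkn2b did not, at 1.04, 0.41 and -0.89. The CDK4/6 inhibitor gene Cdkn2c had 50.1, 48.2 and 56.9 normalized CPM in Stat5a-/- and 117, 118 and 97.1 in Stat5b-/- libraries (log2 fold change 1.10, SE 0.11). The death receptor gene Fas was higher at 1.33 and the p53 target Trp53inp1 at 1.06, the latter at 0.95 without replicate 3 of Stat5a-/- and 0.99 without replicate 3 of Stat5b-/-. Cdkn2b was lower at -1.05 from 2.86 ± 0.30 normalized CPM, and at -0.99 and -0.91 without replicate 1 of Stat5a-/- or replicate 2 of Stat5b-/-. Trp53 and Cdkn1a did not pass at -0.13 and 0.04. None of the 13 tested BCL2 family genes passed both limits, and 1 was higher with the T-cell covariate. The survival gene Bcl2 and the effector gene Bak1 passed the p limit only, at 0.68 and -0.72.

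Of 29 B-lineage transcription factors, 4 were higher and none was lower, and the higher count was 2 without replicate 2 or 3 of Stat5a-/- and 1 without replicate 1 of Stat5b-/-. Id2 and Id3, which block E proteins, were higher at 1.39 and 1.07. Id2 had 21.0, 18.1 and 19.2 normalized CPM in Stat5a-/- and 56.0, 49.8 and 46.9 in Stat5b-/- libraries, while Id3 was at 0.98 without replicate 2 of Stat5a-/- or replicate 1 of Stat5b-/-. Bcl6 and the plasma-cell factor Prdm1 were higher at 1.01 and 1.04, but Prdm1 lost its p limit in 4 of the 6 fits without a library (adjusted p up to 0.147), those without replicates 2 and 3 of Stat5a-/- and 1 and 2 of Stat5b-/-. The defining factors Pax5, Ebf1 and Ikzf1 did not pass at -0.39, 0.26 and 0.15. Bcl11a, Erg and Spib passed the p limit only at -0.99, -0.88 and -0.79. By adjusted p alone 11 genes of the list were higher and 6 lower, against 5 and 5 with the T-cell marker sum as a covariate.

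Of 15 pre-B-cell receptor and recombination genes, 3 were higher and 2 lower. Dntt, which adds bases at V(D)J junctions, had 9.44, 8.46 and 8.57 normalized CPM in Stat5a-/- and 56.6, 68.7 and 79.5 in Stat5b-/- libraries (log2 fold change 2.95, SE 0.15). The other higher genes, the recombinase genes Rag1 and Rag2, were near the floor in both lines and passed the filter on low counts through the wt libraries, where Rag1 had 64.7 normalized CPM. In the fit of the 6 knockout libraries alone neither was tested, and 1 gene of the list was higher. Rag1 had 2, 3 and 1 reads in the Stat5a-/- and 7, 10 and 11 in the Stat5b-/- libraries. Rag2 had 3 reads in Stat5a-/- and 29 in Stat5b-/- libraries, a ratio of 8.6 (95% counting interval 2.67 to 44.1), against 32.5 normalized CPM in wt and 0.68 in Stat5b-/-. Vpreb2, a surrogate light chain, was lower with 260, 268 and 268 against 57.5, 63.5 and 57.8 normalized CPM (log2 fold change -2.15, SE 0.10), and shares sequence with Vpreb1, which did not pass at 0.17.

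Of 23 tested B-cell surface stage markers, 5 were lower and 3 higher, the latter being 1 without replicate 1 and 5 without replicate 2 of Stat5b-/-. Cd38 had 30.8, 28.7 and 22.5 normalized CPM in Stat5a-/- and 8.16, 6.83 and 6.70 in Stat5b-/- libraries (log2 fold change -1.92). Ly6a (Sca-1) was lower at -1.70, from 129 ± 14.1 to 39.7 ± 3.80, against 7.01 in wt, and the inhibitory coreceptor Cd22 at -1.15. Cd72 was higher at 1.06. Ms4a1 (CD20) and Cd86 were higher at 1.15 and 1.13 from under 3 normalized CPM. Both missed a limit without replicate 1 of Stat5b-/-, at 0.98 and 0.88. Ms4a1 also did so without replicate 3 of Stat5a-/- (0.98) and Cd86 without replicate 2 (0.99). With the T-cell covariate both were near 0, at -0.05 and -0.06, and 1 gene of the list was higher and 4 lower past both limits.

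Among 23 tested homing and adhesion genes, the laminin receptor chain Itga6 was lower with 223, 218 and 196 against 63.3, 53.1 and 61.4 normalized CPM (log2 fold change -1.84, SE 0.11), and the chemokine receptor gene Cxcr5 was lower at -1.54. By adjusted p alone, 13 genes of this list were higher and 3 lower, among the former Pecam1 at 0.91 and S1pr1 at 0.70. With the T-cell marker sum as a covariate 2 were higher and 3 lower, none was higher past both limits, and the median went from 0.32 to -0.0012. Ccr2 was higher at 1.01, but at 0.87 to 0.97 in the 4 fits without replicates 2 and 3 of Stat5a-/- or 1 and 3 of Stat5b-/-. Without replicate 1 of Stat5a-/- or replicate 2 of Stat5b-/-, 2 and 3 genes of the list were higher.

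Plexins and semaphorins, which are guidance receptors and ligands, held some of the largest differences. Of 20 tested, 4 were lower and 3 higher. Plxnb2 had 34.5, 33.4 and 45.1 normalized CPM in Stat5a-/- and 1.65, 1.64 and 1.60 in Stat5b-/- libraries (log2 fold change -4.52, SE 0.19), and Plxna3 had 28.7, 30.0 and 35.4 against 1.51, 0.62 and 0.84 (log2 fold change -4.97). The wt libraries of both genes were on the side of Stat5a-/-, at 79.8 to 104 and 26 to 34.4. Sema7a was lower at -2.35. Sema5a was higher at 4.69 and Plxnb1 at 2.59, from means of 0.16 and 0.27 to 4.32 and 1.79 normalized CPM. The ligand Sema4d, the most abundant of the list, did not pass at -0.20.

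The largest folds were in genes of many kinds. Of the genes past both limits, 502 had no overlap and a mean of at least 10 normalized CPM over the 6 libraries, immunoglobulin and T-cell receptor segments left out, 193 of them higher and 309 lower. The 12 highest were Zfp462, Lgr5, Lhx2, Fat1, Hspb8, Maged1, Tspan6, Rbpms, Ext1, Tiam1, Gfi1b and Tgfb3, with log2 fold changes from 4.73 to 8.67. Zfp462, a zinc finger protein, had 0.14, 0.16 and 0.27 normalized CPM in Stat5a-/- and 86.5, 89.5 and 60.9 in Stat5b-/- libraries, and 0.15 to 0.29 in wt. Lgr5, a receptor that enhances WNT signaling, had 0.07, 0.24 and 0.27 against 55.3, 69.4 and 67.8, and 15.5 to 18.4 in wt. For Zfp462 the Stat5b-/- line alone was high, and for Lgr5 the wt line lay between the others. Gfi1b, a transcriptional repressor in blood cells, was low in the Stat5a-/- line alone and had 5.59, 5.45 and 7.39 in Stat5a-/-, 180, 177 and 136 in Stat5b-/- and 150 to 202 in wt libraries. Tgfb3, a ligand of the TGF-beta family, had 5.31, 3.82 and 4.69 against 136, 131 and 102 normalized CPM, and 5.89 to 8 in wt. The LIM homeobox gene Lhx2, the atypical cadherin gene Fat1 and the RAC activator gene Tiam1 stood at 8.07, 7.45 and 4.90, from means of 0.11, 0.15 and 1.25 normalized CPM.

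The 12 lowest were Stum, Pcdh11x, Klhl14, Kirrel, Ssc5d, Grb10, Ston1, Elfn1, Prkaa2, Gm13394, Cd248 and 4930426D05Rik, from -9.51 to -5.89. The models of Klhl14 and 4930426D05Rik overlap on opposite strands, and counts made without a strand option may not separate them. Stum had 138, 130 and 165 normalized CPM in Stat5a-/- and 0.07, 0.14 and 0.38 in Stat5b-/- libraries, and 0.13 to 0.23 in wt. Klhl14, of the Kelch-like family, had 211, 222 and 191 against 0.48, 0.89 and 0.69, and 0.63 to 1.33 in wt. Both were high in the Stat5a-/- line alone. Grb10, an adaptor that restrains insulin receptor signaling, and Cd248 (endosialin) were instead low in the Stat5b-/- line alone. Grb10 had 65.4, 66.7 and 59.8 in Stat5a-/-, 0.55, 0.68 and 0 in Stat5b-/- and 92.9 to 96.4 in wt libraries. Prkaa2, a catalytic subunit of AMP-activated kinase, stood at -6.33, from 49.8 ± 4.50 to 0.60 ± 0.29. The protocadherin gene Pcdh11x had 1011 reads in Stat5a-/- and 2 in Stat5b-/- libraries, a ratio of 568 (95% counting interval 157 to 4697).

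By level, the largest falls were those of Fth1, Ighm, Scd1, Scd2 and Lgals1. Fth1, the ferritin heavy chain that stores iron, had 4746, 5432 and 5550 normalized CPM in Stat5a-/- and 1498, 1333 and 1206 in Stat5b-/- libraries (log2 fold change -1.96, SE 0.12), and the immunoglobulin mu constant gene Ighm had 4129, 4762 and 4621 against 1433, 1555 and 1449 (log2 fold change -1.61). The lines did not overlap, and wt was nearer Stat5b-/- for both, at 1771 to 1978 and 1833 to 1974. The stearoyl-CoA desaturase genes Scd1 and Scd2 were lower at -1.65 and -1.35, and Lgals1 (galectin-1) at -3.28, from a mean of 1054 to 109 normalized CPM. The largest rises by level were those of Adgrg1, Coro2a, D630045J12Rik, Efhd1 and Pag1. The adhesion receptor gene Adgrg1 had 321, 315 and 423 normalized CPM in Stat5a-/- and 956, 821 and 633 in Stat5b-/- libraries (log2 fold change 1.19, SE 0.16). Coro2a, an actin-binding coronin, stood at 1.79 and Pag1, an adaptor that recruits the Src inhibitor Csk, at 1.58.

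Of 44 tested immunoglobulin and T-cell receptor segments, 7 were higher and 11 lower. Of 15 heavy chain segments, 8 were lower and 3 higher, with a median of -2.63. Ighj2 had 38.1, 38.1 and 36.3 normalized CPM in Stat5a-/- and 4.53, 6.77 and 6.93 in Stat5b-/- libraries. Ighd2-8 had 1090 reads in Stat5a-/- and 3 in Stat5b-/- libraries, a ratio of 408 (95% counting interval 139 to 1983). Of 16 T-cell receptor beta segments, 3 were higher and none lower, with a median of 0.86, against 0.77 for the T-cell markers. Trbv3 had 10.9, 9.28 and 7.03 normalized CPM in Stat5a-/- and 23.3, 10.7 and 18.2 in Stat5b-/- libraries, which overlap. It passed the p limit only at 0.93, and both limits at 1.09 and 1.19 without replicate 1 of Stat5a-/- or replicate 2 of Stat5b-/-.

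Small marker lists of other cell types gave few tested genes. Of 10 NK-cell markers, 8 were tested, with a median of 0.85 and 6 higher by adjusted p alone. The receptor gene Klre1 was higher at 1.07, but lost a limit without replicate 2 or 3 of Stat5a-/- (1.04 and 0.89) or replicate 1 of Stat5b-/- (0.84), and Klrb1c was lower at -1.45. With the T-cell covariate the median turned to -0.25 and no NK-cell marker was higher, while Klrb1c stayed lower at -1.40. Without replicate 2 of Stat5b-/- 4 NK-cell markers were higher, and 2 without replicate 1 of Stat5a-/-. The sum of the NK-cell markers was 115 to 147 normalized CPM in Stat5a-/- and 161 to 267 in Stat5b-/- libraries. Of 16 myeloid markers, 3 were tested and the sums were 5.61 to 7.27 and 10.5 to 12.3, with the granule genes Ctsg and Elane at 0 in all 6 libraries. Of 12 erythroid and megakaryocyte markers, 2 were tested, and Hbb-bt, a beta-globin gene, was lower at -2.50, from 12.6 ± 1.28 to 2.24 ± 0.62. Of 10 stromal and endothelial markers only Pecam1 was tested. No gene of the 17 Polycomb and DNA methylation genes passed both limits, though Dnmt3b and Uhrf1 passed the p limit at -0.99 and -0.65. Of 16 HOXA, MEIS and PBX genes, 3 were tested, and Meis2 was higher at 2.54 from a mean of 0.17 to 0.97 normalized CPM, against 26.6 in wt.

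The lower genes were not spread evenly over the chromosomes. The median log2 fold change was -0.42, -0.48 and -0.43 on chromosomes 17, 18 and 19, and between 0.01 and 0.11 on each of the other chromosomes with at least 20 tested genes. Of the 1472 tested genes on these 3 chromosomes, 78.7% were below 0 and 11.3% were lower past both limits, against 44.7% and 6.03% of the 12380 genes elsewhere. The share of higher genes was 3.87% there and 4.92% elsewhere. Singly, 12.4% were lower on chromosome 17, 7.10% on 18 and 12.7% on 19. The lower share of 18 was under that of chromosomes 12 and 15 (7.79% and 7.89%), and 5.56% of its genes were higher. Chromosome 18 thus stood apart by its median and not by its share of lower genes. Against wt, the medians of the Stat5a-/- line on chromosomes 17, 18 and 19 were 0.53, 0.43 and 0.41, and those of the Stat5b-/- line 0.14, -0.04 and 0.03. These comparisons share the wt libraries. By library, the median deviation from wt lay between 0.36 and 0.58 in the Stat5a-/- libraries and between -0.08 and 0.16 in the Stat5b-/- libraries on these chromosomes, so no library of a line overlapped the other. Of the lower genes named above, Pim1, H2-DMb1, H2-DMb2, Rps2, Ndufb10 and Ston1 lie on chromosome 17, Klhl14 and 4930426D05Rik on 18, and Fth1, Scd1, Scd2, Gldc, Dusp5, Nolc1, Mxi1, Ndufs8 and Cd248 on 19. Of the higher genes, Egr1 and Iigp1 lie on 18, and Dntt, Fas and Ms4a1 on 19. Of the MHC lists, 7 of 14 class I genes and 9 of 10 class II genes lie on these 3 chromosomes. Without members on these chromosomes, 5 STAT5 target genes were lower, 14 antiviral genes were higher and no ribosome biogenesis gene passed both limits.

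**Figure D5:**
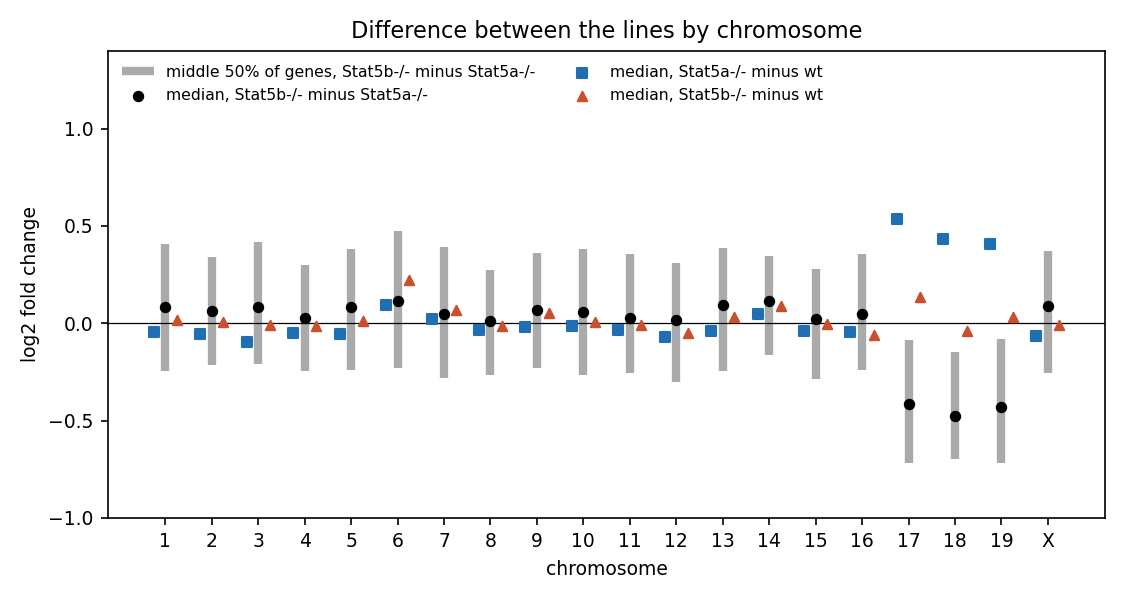
Median log2 fold change of tested genes by chromosome. Black circles are Stat5b-/- over Stat5a-/- with a grey bar for the middle 50% of genes, blue squares Stat5a-/- over wt and red triangles Stat5b-/- over wt. Chromosomes 17, 18 and 19 stand apart at -0.42 to -0.48 between the lines, with the Stat5a-/- line at 0.41 to 0.53 over wt.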

How the data were processed

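RNA of the Stat5a-/-, Stat5b-/- and wt lines was polyA-selected and sequenced as 50 bp single-end reads. The authors trimmed and aligned the reads to GRCm38 and deposited raw counts per gene, made by featureCounts 1.5.1 on GENCODE M13 models. Per the file headers, neither a strand option nor one for reads with several positions was set, so overlapping and antisense genes cannot be told apart and genes with near-identical copies lose reads. Totals lay between 11948136 and 19016396 counted reads per library. Genes with a few reads are imprecise at this depth, and counting intervals and the floor of 3 reads cover counting error only. Samples were grouped by title, with which the free text of the knockout samples (it names wild-type lines) disagrees. A GENCODE table named 50376 of the 50686 genes.

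TMM-scaled counts of all 9 libraries were fitted with edgeR 4.0.16 in R 4.3.3 (filterByExpr, glmQLFit, glmQLFTest, Benjamini-Hochberg adjustment). The limits were 0.05 for the adjusted p and 1 for the size of the log2 fold change, whose SE was obtained from the F statistic. The steps were tested on simulated data. The comparison, tests and gene lists were chosen with earlier results of these data known. Genes named by rule are not all given with library values. The rule took STAT family genes and up to 5 members of each list past both limits without overlap. At a mean of at least 10 normalized CPM it took the 12 highest and 12 lowest folds and the 5 largest rises and falls. The most abundant receptor segments and sex-linked genes were also included. Other list members named were chosen after their values were seen. Alternatives were DESeq2 1.42.0, RLE scaling, no low-count filter or a stricter one (mean count of 10), the 6 knockout libraries alone, a replicate block, each library left out, testing beyond a log2 fold change of 1, the adjusted p alone, chromosomes 17, 18 and 19 or receptor segments left out, and the T-cell marker sum as a covariate. A covariate from T-cell receptor complex genes, and lists without members on those chromosomes, were added after seeing the data. Some list members are not reported here.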

Additional observations from a re-analysis of the deposited data

How the results depend on the processing

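Genotype and line cannot be separated by any of these fits. Against 666 higher and 914 lower genes, testing beyond a log2 fold change of 1 left 261 and 502, as its stricter null requires, and the adjusted p alone gave 2269 and 2429. With the T-cell marker sum as a covariate 439 genes were higher and 715 lower, and with the T-cell receptor complex genes, a covariate chosen after seeing the data, 461 and 728. Neither sum overlapped between the lines, so both covariates are partly confounded with the contrast. The cause was not tested. The 15 higher antiviral genes became 8 under each of these covariates, 3 when tested beyond the fold limit and 33 by the adjusted p alone. The 6 lower STAT5 target genes became 11 by the adjusted p alone. The log2 fold changes of Gbp8, Ms4a1 and Cd86 changed sign, to -0.056, -0.049 and -0.061 with the T-cell marker sum and to -0.073, -0.022 and -0.070 with the receptor complex genes. Leaving out 1 library gave 588 to 796 higher and 865 to 972 lower genes, 14 to 17 higher antiviral genes and 5 to 7 lower STAT5 target genes. Of the 121 named genes past both limits, 102 were past them in all 6 of these fits. DESeq2 gave 621 higher and 983 lower genes, of which 584 and 877 were also calls of edgeR. Of the named genes past both limits, 25 kept their sign but lost a limit under each T-cell covariate. Gbp8, Ms4a1 and Cd86, which changed sign, also lost a limit and are not among these 25. Testing beyond a log2 fold change of 1 left 47 of the named genes short. DESeq2 took Prdm1 and Ccr2 below a limit, RLE scaling Ccr2 and the fit without a filter Ndufb10. Deviations of same-numbered libraries were not positively correlated (mean r -0.20, against 0.096 for different numbers), so the numbers were not taken to pair the samples. With the replicate block 625 genes were higher and 894 lower, and of the named genes Prdm1 (adjusted p = 0.0658) and Ndufb10 (log2 fold change -0.99) lost a limit.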
